A study of Homo sapiens with 12 samples.

Results

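PALD1, DDN, ZFP41, FJX1 and MS4A6A are 5 of the 60240 genes in a table of HL-60 transcript levels. They were chosen by their normalised counts at 120 h, for a low ratio of decitabine-treated to DMSO-treated cells. HL-60 is an established human promyelocytic leukaemia line, here of wild-type genotype, and all groups were wells of this one line. Cells plated in duplicate at 100000 per mL received decitabine at 100 nM at 0, 24 and 48 h, or DMSO, the vehicle, and RNA was taken at 6, 72 and 120 h. The decitabine wells taken at 6 h had therefore met only the addition at 0 h, and those taken at 120 h the full course followed by culture without a further addition. The groups were decitabine 6 h, decitabine 72 h and decitabine 120 h with 2 libraries each, DMSO 6 h and DMSO 120 h with 2 each, and DMSO 72 h with 1 library that had values and so has no SD. The measure is stranded RNA-seq of ribosome-depleted total RNA, given as a normalised count.

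Decitabine, a nucleoside analogue of deoxycytidine, enters DNA during replication and captures DNA methyltransferases there. Methylation of CG dinucleotides is thereby diluted as cells divide. It is known for switching silenced genes on; the 5 genes described here were chosen for lower levels. MS4A6A encodes a membrane protein of monocytes and macrophages. PALD1 encodes paladin, a protein with phosphatase-like domains known mainly from blood vessel endothelium. DDN encodes dendrin, a protein of neuronal dendrites and of the kidney podocyte. FJX1 is the human counterpart of Drosophila four-jointed, a Golgi kinase that in the fly phosphorylates the cadherins Fat and Dachsous. ZFP41 encodes a C2H2 zinc finger protein whose targets are little known. No DNA methylation was measured in these libraries.

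Values were available for 11 libraries, with estimated depths of 14427335 to 32908453 counts and with 1 count worth 0.407 to 0.961 normalised units. Of 16152 genes tested, 50 were called lower and 303 higher with decitabine at 72 h (97 and 284 after quantile normalisation), and 0 were called at 6 h. Many more were called without decitabine 72 h replicate 1, and the rise was far smaller without replicate 2. Both fits set 1 library against 1 at 72 h, and their spread comes wholly from the other groups. The layout is thus the same, and the cause of the gap between these fits was not tested. The decitabine 72 h libraries differed from one another by a median of 0.59 on the log2 scale, against 0.19 to 0.261 within the other pairs. The transcript FP671120.7 took 3.89 to 10.9% of the counts at 120 h and 5.25% in decitabine 72 h replicate 1, against 0.0424 to 0.794% in the other libraries. Promyelocytic genes (MPO, ELANE, AZU1, PRTN3, CTSG, CD33 and MYC) were present in every library, with summed levels of 92642 to 199392 normalised counts. The sum was mostly MPO (86061 to 178349) and does not describe the others. Of the markers, MYC alone was called, lower with decitabine at 72 and 120 h. A filter on low values kept PECAM1 alone of 5 endothelial markers and WT1 alone of 5 podocyte markers. The endothelial sum, nearly all PECAM1, was 1808 to 1893 with decitabine and 449 to 503 with DMSO at 120 h, and VWF, CDH5, KDR and TEK stayed under the filter; their part in the PALD1 values was not tested. In bulk RNA, fewer cells of a type and less RNA per cell cannot be told apart.

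The ratio at 120 h chose the genes and is given as a description. It was 0.137 for PALD1, 0.141 for DDN, 0.156 for FJX1, 0.162 for ZFP41 and 0.189 for MS4A6A, which are 7.28-, 7.08-, 6.4-, 6.18- and 5.3-fold lower means with decitabine. None of the 5 was at 0, and the lowest single value was 2.5 normalised counts for ZFP41. They were also not the 5 lowest ratios of the table. PALD1 ranked 89 and MS4A6A 130 among the genes tested, and 37 and 59 among the protein-coding ones. With a DMSO 120 h mean of at least 50 normalised counts, 22 protein-coding genes had a ratio at or below that of MS4A6A, and 17 of these were other genes. The genes next in rank were BCAT1, an enzyme of branched-chain amino acid breakdown, at a ratio of 0.189, USP41, a putative deubiquitinase gene, at 0.191, and the readthrough gene PTGES3L-AARSD1 at 0.191. In the fit over all genes, 6% of those tested were called lower at 120 h.

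The promoter windows of PALD1, FJX1 and MS4A6A are shown because decitabine acts through CG dinucleotides, and because these genes differ widely in them. Each is a RefSeq window of 300 bases around a gene start in GRCh38.p14, written 5′ to 3′ on the gene's own strand, with every CG in capitals. The PALD1 window is chr10:70478517-70478816 on the plus strand, inside the annotated span of the gene. The FJX1 window is chr11:35618210-35618509 on the plus strand. The MS4A6A window is the first of 4 listed for this gene, chr11:60184617-60184916 on the minus strand.
PALD1: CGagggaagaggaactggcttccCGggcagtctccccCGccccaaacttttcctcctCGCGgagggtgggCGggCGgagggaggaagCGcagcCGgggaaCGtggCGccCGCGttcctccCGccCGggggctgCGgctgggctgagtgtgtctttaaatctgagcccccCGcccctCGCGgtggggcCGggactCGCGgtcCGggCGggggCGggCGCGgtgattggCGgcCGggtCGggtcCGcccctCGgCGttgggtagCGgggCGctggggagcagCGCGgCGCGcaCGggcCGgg
FJX1: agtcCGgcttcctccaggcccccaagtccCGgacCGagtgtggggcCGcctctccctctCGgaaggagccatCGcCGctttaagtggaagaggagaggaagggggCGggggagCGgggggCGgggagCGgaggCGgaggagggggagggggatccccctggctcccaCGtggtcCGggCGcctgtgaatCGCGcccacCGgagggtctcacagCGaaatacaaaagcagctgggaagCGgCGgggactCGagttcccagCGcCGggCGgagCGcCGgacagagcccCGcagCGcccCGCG
MS4A6A: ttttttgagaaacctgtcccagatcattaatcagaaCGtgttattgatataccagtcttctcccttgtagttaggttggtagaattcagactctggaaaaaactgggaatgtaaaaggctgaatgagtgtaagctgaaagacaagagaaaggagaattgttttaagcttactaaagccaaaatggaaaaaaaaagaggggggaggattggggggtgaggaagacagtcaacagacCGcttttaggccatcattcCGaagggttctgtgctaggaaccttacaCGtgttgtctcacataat

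The PALD1 window held 41 CG dinucleotides, more than 93.3% of the 35116 windows in the table, and 76.7% of its bases were G or C. The FJX1 window held 31, more than 79.4% of windows, and the MS4A6A window held 4, more than 24.5%. The median window held 14. The GC box letters GGGCGG, read on both strands, occurred 8 times in the PALD1 window, 3 times in the FJX1 window and 0 times in the MS4A6A window; 45% of all windows hold them. The E-box letters CACGTG, which MYC and related factors can bind, occurred once in the FJX1 window and once in the MS4A6A window, against 7.26% of all windows, and not in the PALD1 window. The core ETS letters GGAA were in each of the 3, as in 95.5% of all windows, and some of these lie within other motifs. The longer PU.1 letters GAGGAAGT, which hold the ETS core and are found in 2.59% of windows, the interferon-stimulated response element (3.57%) and the TATA letters TATAAA (11.5%) were not in these windows. The other MS4A6A windows differ: the second holds 3 CG and the E-box letters, the third 0 CG and TATAAA 2 times, and the last 2 CG, with no E-box letters in the third or the last. A match is a description of letters and not a bound site.

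**Figure D1:**
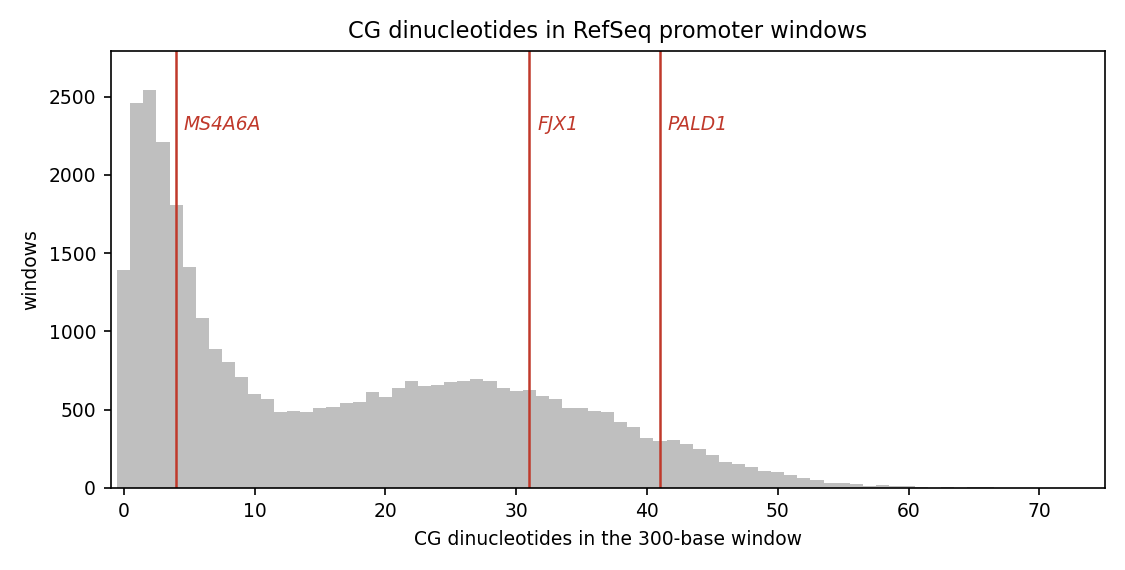
Number of CG dinucleotides (x axis) in the 35116 RefSeq promoter windows of 300 bases (y axis, number of windows), with red lines at the windows of MS4A6A, FJX1 and PALD1. The MS4A6A line stands at 4, inside the low mode, and the FJX1 and PALD1 lines stand at 31 and 41, in the broad high mode.

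Of the 5 genes, 2 (MS4A6A and PALD1) were called lower at 72 h, when limma called 0.31% of all genes tested lower; the PALD1 call was lost without any 1 library of the 6 or 120 h groups. At 6 h 0 of 5 were called, as were 0% of all genes, although 541 genes had an unadjusted p under 0.05; for the 5 genes the unadjusted p ran from 0.4228 to 0.6493. The 6 h log2 fold changes were -0.17 for PALD1, 0.19 for DDN, -0.37 for ZFP41, 0.28 for FJX1 and 0.23 for MS4A6A. Only MS4A6A of the 5 had a called difference between the 72 and 6 h effects, a call made for 0.0557% of genes in the lower direction. Within decitabine, 2 of 5 were called lower at 72 h than at 6 h, against 3.31% of all genes tested. Between DMSO 72 h and DMSO 6 h limma called 0 of 5 and 0% of all genes, 456 of which had an unadjusted p under 0.05. For 4 of the 5 genes, without ZFP41, the 4 decitabine libraries of 72 and 120 h lay below all 5 DMSO libraries, as for 9.78% of all genes tested; this count includes the libraries that chose the genes. The 2 decitabine 72 h libraries lay below the 3 DMSO libraries of 6 and 72 h for 4 of the 5 genes, ZFP41 not among them, and for 16.5% of all genes tested.

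**Figure D2:**
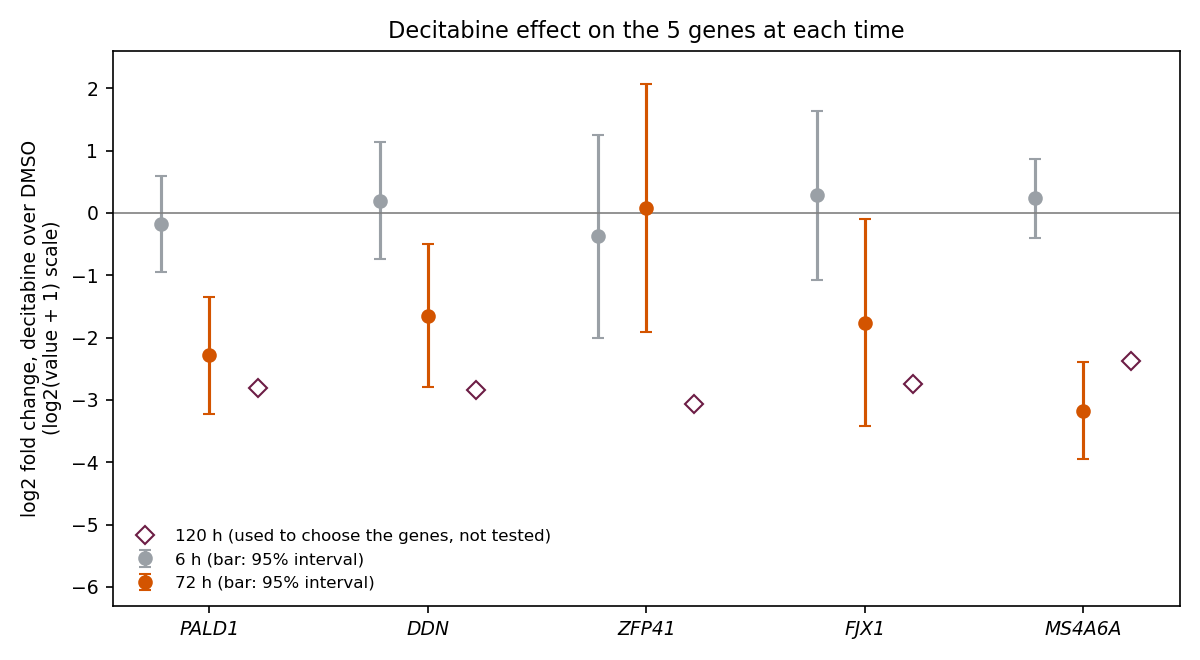
Log2 fold change of decitabine over DMSO (y axis, log2(value + 1) scale) for each of the 5 genes (x axis) at 6 h in grey and 72 h in orange, with bars for the 95% interval, and at 120 h as open diamonds without a test, since that contrast chose the genes. The 6 h intervals include 0 for all 5 genes, and the 72 h intervals lie below 0 for PALD1, DDN, FJX1 and MS4A6A and include 0 for ZFP41.

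MS4A6A, the monocyte and macrophage membrane protein, was the gene of the 5 with the largest drop at 72 h. The gene lies on the minus strand of chromosome 11 at 60171607 to 60184666 (GRCh38, RefSeq). At 6 h it stood at 190 and 156 normalised counts with decitabine, against 128 and 167 with DMSO. At 72 h it stood at 17.1 and 14.0 with decitabine, against 148 in the DMSO library. At 120 h it stood at 18.5 and 26.4 with decitabine, against 110 and 128 with DMSO. Both decitabine 72 h libraries lay below the DMSO libraries of 6 and 72 h, as for 16.5% of all genes tested. The 6 h groups overlapped, and the lower decitabine values at 120 h follow from the choice of the gene. At 72 h the log2 fold change was -3.17 (SE 0.34), or 0.111 times the DMSO level, with a limma adjusted p of 0.003553. Within decitabine, the 72 h libraries were lower than those at 6 h by -3.39 on the log2 scale (SE 0.278, limma adjusted p = 0.0005999). The effect at 72 h also differed from that at 6 h, by -3.40 on the log2 scale (SE 0.439, limma adjusted p = 0.0187). The last call was lost without either decitabine 120 h library (adjusted p 0.06338 and 0.06313), either decitabine 6 h library (0.09891 and 0.06562) or either DMSO 6 h library (0.08128 and 0.05787), in fits that keep fewer libraries for the spread. The 72 h call held in each of 10 fits without 1 library, with adjusted p from 0.001108 to 0.01554.

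**Figure D3:**
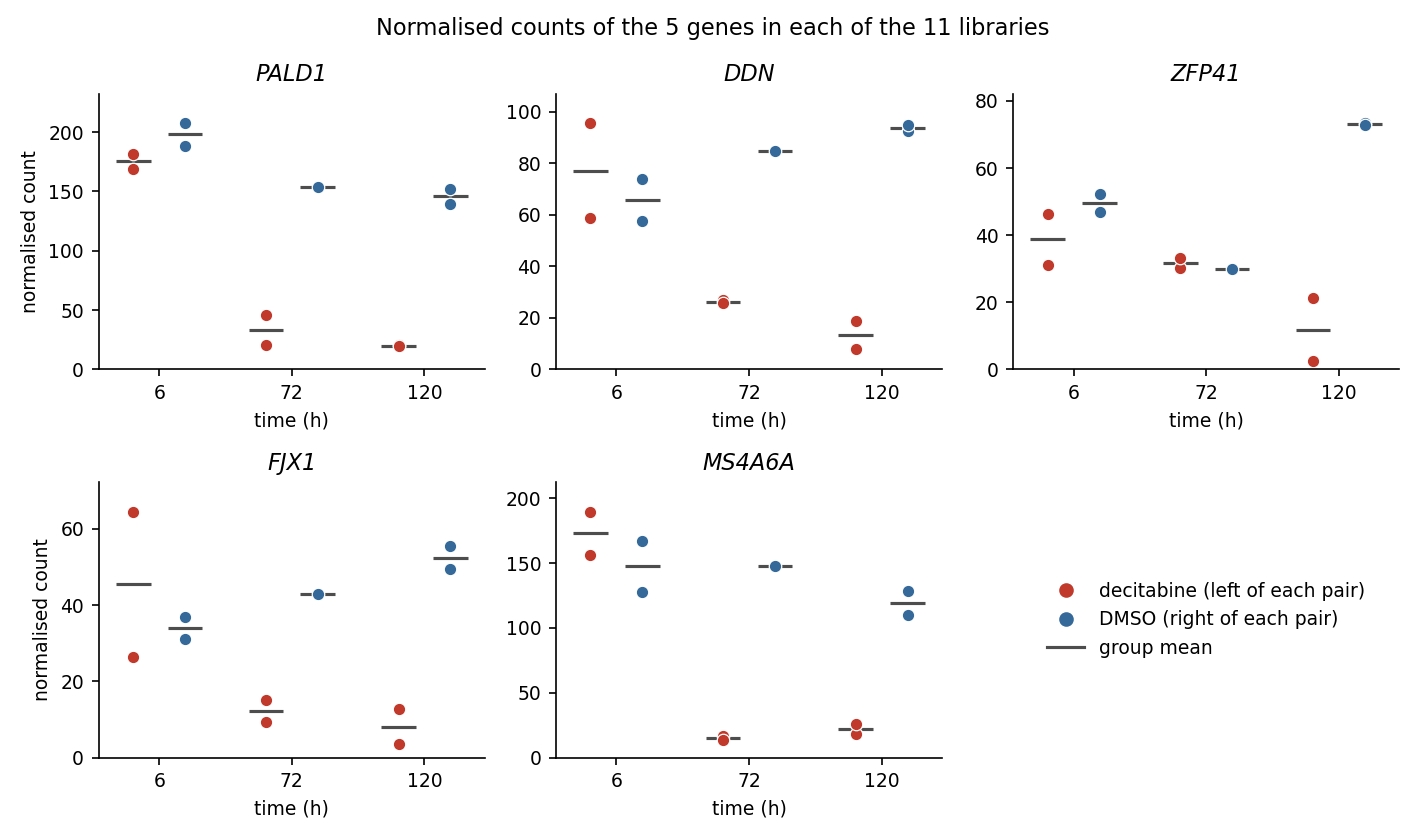
Normalised counts (y axis, from 0) of the 5 genes at 6, 72 and 120 h (x axis), with 1 point per library, decitabine in red left of DMSO in blue, and a bar at the group mean. MS4A6A, PALD1, DDN and FJX1 are low in the 4 decitabine libraries of 72 and 120 h, whereas ZFP41 is low in those of 120 h and near the DMSO library at 72 h. The 120 h values chose the genes.

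The relatives of MS4A6A gave a count at 72 h that is near the share of all genes. Of 17 relatives of MS4A6A (MS4A genes and the related TMEM176A and TMEM176B), 6 passed the filter. At 72 h limma called 0 of them, with 1 at an unadjusted p under 0.05, while 1.88% of all genes tested were called higher and 0.31% lower. Without decitabine 72 h replicate 1 a call was made, in a fit of 1 library against 1 at 72 h. MS4A7, a macrophage gene of the same family, fell at 120 h to 8.47 and 8.76 normalised counts with decitabine, against 21.6 and 31.8 with DMSO (log2 fold change -1.50, SE 0.374, limma adjusted p = 0.02926), a call that was lost without any 1 library of the 6 or 120 h groups. Its 72 h values were 17.4 and 9.33 with decitabine, against 22.0 in the DMSO library (adjusted p = 0.4324). MS4A3, a gene of granulocyte-monocyte progenitors, stood at 9423 and 22020 with decitabine at 72 h, against 5743 with DMSO (log2 fold change 1.33, SE 0.418, limma adjusted p = 0.1496). At 120 h MS4A3 stood at 11022 and 10736 with decitabine, against 5357 and 6402 with DMSO (log2 fold change 0.89, limma adjusted p = 0.118), a difference that was called without either decitabine 72 h library, with sample weights and after quantile normalisation. MS4A2, the beta chain of the IgE receptor, had a log2 fold change of 1.02 at 72 h (SE 0.561, limma adjusted p = 0.3777). The median over the 6 was 0.25 at 72 h and 0.34 at 120 h, against 0.09 and 0.07 over all genes tested. When the DMSO libraries of 6 and 72 h served together as the control, 2 of the 6 were called at 72 h. Of all 16152 genes tested, 1325 were then called higher and 816 lower.

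**Figure D4:**
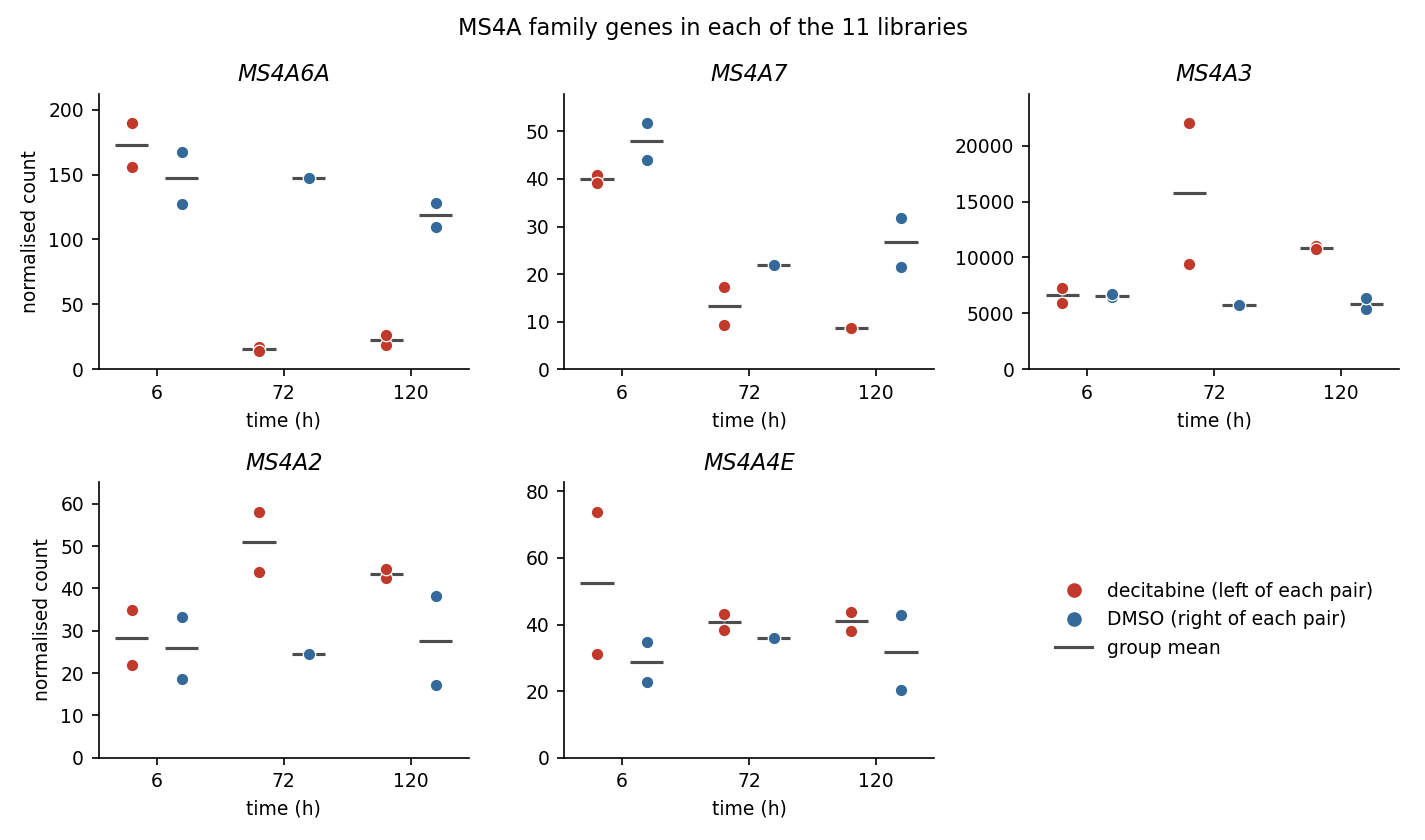
Normalised counts (y axis, from 0, own scale per panel) of MS4A6A and 4 further MS4A genes at 6, 72 and 120 h (x axis), with 1 point per library, decitabine in red left of DMSO in blue, and a bar at the group mean. MS4A6A drops in the decitabine libraries of 72 and 120 h, MS4A7 is lower at 120 h, and MS4A3 is at 9423 or more in the decitabine libraries of 72 and 120 h.

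Most of the other monocyte and macrophage genes rose by 120 h. Of 17 that passed the filter besides MS4A6A, 2 rose and 2 fell at 72 h, when 1.88% of all genes tested were called higher and 0.31% lower. At 120 h 12 rose and 3 fell, against 9.91% of all genes called higher and 6% lower; without either decitabine 120 h library 7 rose. CLEC7A, the beta-glucan receptor, rose to 189 normalised counts with decitabine at 72 h, against 29.2 with DMSO (log2 fold change 2.66, limma adjusted p = 0.009163). CD68, a lysosomal protein of macrophages, rose to 1408 at 72 h, against 412 with DMSO (1.76, limma adjusted p = 0.009697). CCR2, the chemokine receptor of classical monocytes, fell with MS4A6A, to 68.7 at 72 h against 214 with DMSO (-1.63, limma adjusted p = 0.02142). IRF8, a transcription factor of the monocyte and dendritic cell lineage, fell to 337 against 949 (-1.50, limma adjusted p = 0.01246). The summed level of 6 mature monocyte markers, of which CX3CR1 did not pass the filter, was 327 to 393 in decitabine 72 h libraries against 158 in the DMSO 72 h library, and 839 to 844 against 157 to 172 at 120 h. This sum is not a second measure, since the 6 are all in the list counted above and its fallers CCR2, IRF8 and MS4A7 are not in the sum. FCN1 was its largest part, with a mean of 427 in the decitabine 120 h libraries. The part of these genes in the drop of MS4A6A was not tested. Among 13 myeloid fate factors that passed the filter, GATA2 rose at 72 h to 794 against 214 with DMSO (1.88, limma adjusted p = 0.005745), MYC fell to 3356 against 11410 (-1.78, limma adjusted p = 0.007761), and GATA1 was called higher but is listed at 0 in the DMSO 72 h library. The 4 calls of each list at 72 h became 12 and 7 with the DMSO libraries of 6 and 72 h as one control. That control called 1325 of all 16152 genes tested higher and 816 lower. More were also called without decitabine 72 h replicate 1, in a fit of 1 library against 1 at 72 h. SPI1, which encodes PU.1, stood at 457 with decitabine and 529 with DMSO at 72 h (limma adjusted p = 0.6668).

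PALD1, the phosphatase-like protein, fell at 72 h as well. It lies on the plus strand of chromosome 10 at 70458485 to 70568450 and has 20 exons in GENCODE 29. At 6 h it stood at 169 and 182 normalised counts with decitabine, against 208 and 188 with DMSO. At 72 h it stood at 45.7 and 20.7 with decitabine, against 154 in the DMSO library. At 120 h it stood at 20.2 and 19.9 with decitabine, against 140 and 152 with DMSO. Both decitabine 72 h libraries lay below the DMSO libraries of 6 and 72 h, as for 16.5% of all genes tested. At 6 h the decitabine pair lay just below the DMSO pair. The lower decitabine values at 120 h follow from the choice of the gene. The 120 h decitabine values rest on 27 and 28 counts, with 95% Poisson intervals of 17.8 to 39.3 and 18.6 to 40.5 counts that cover counting error only. At 72 h the log2 fold change was -2.28 (SE 0.411), or 0.206 times the DMSO level, with a limma adjusted p of 0.03328. Within decitabine, the 72 h libraries were lower than those at 6 h by -2.47 on the log2 scale (SE 0.336, limma adjusted p = 0.004987). The 72 h call was lost in 8 of 10 fits without 1 library, namely without any 1 library of the 6 h or 120 h groups, at adjusted p up to 0.07851, while the fold change itself stayed at -2.28 in those fits. It was lost too with no filter on low values (adjusted p = 0.06092), with sample weights (0.06634) and with the replicate number as a block (0.06332). The 2 libraries at 72 h differed: without decitabine replicate 1 the log2 fold change was -2.83, and without replicate 2 it was -1.73. Whether the effect at 72 h differed from that at 6 h was not called (-2.11, SE 0.531, limma adjusted p = 0.1496).

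Phosphoinositide phosphatases, the enzyme group set beside PALD1, had 5 calls at 120 h and 0 at 72 h. Of 23 that passed the filter, limma called 0 at 72 h, with 4 at an unadjusted p under 0.05, and the median log2 fold change was 0.17, against 0.09 over all genes tested, of which 1.88% were called higher and 0.31% lower. Without decitabine 72 h replicate 1 or 2 some were called, in fits of 1 library against 1 at 72 h. With the DMSO libraries of 6 and 72 h as one control, 2 were called at 72 h, beside 1325 higher and 816 lower of all 16152 genes tested. At 120 h 4 of the 23 rose and 1 fell, beside 9.91% of all genes called higher and 6% lower; with any 1 of the 120 h libraries left out, 0 or 1 rose and 0 fell. The 5 genes were INPPL1, the lipid phosphatase SHIP2, at 765 normalised counts with decitabine and 352 with DMSO (limma adjusted p = 0.01875), MTMR3 (log2 fold change 1.01, adjusted p = 0.007168), MTMR6 (0.70, adjusted p = 0.03162), FIG4 (0.69, adjusted p = 0.01679) and the lower MTMR2 (-0.75, adjusted p = 0.03836). They are all the list's calls at 120 h, named after their values were seen.

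DDN, the dendrite and podocyte protein, was low in the later decitabine libraries, with a 72 h difference that did not pass the test. It lies on the minus strand of chromosome 12 at 48995149 to 48999375. At 6 h it stood at 58.6 and 95.6 normalised counts with decitabine, against 74.0 and 57.8 with DMSO, and the groups overlapped. At 72 h it stood at 27.0 and 25.6 with decitabine, against 84.7 in the DMSO library. At 120 h it stood at 18.7 and 7.84 with decitabine, against 92.6 and 94.9 with DMSO. Both decitabine 72 h libraries lay below the DMSO libraries of 6 and 72 h, as for 16.5% of all genes tested. The lower decitabine values at 120 h follow from the choice of the gene. The lowest value rests on 11 counts, with a 95% Poisson interval of 5.49 to 19.7 counts. The 72 h log2 fold change of -1.65 (SE 0.502, 95% interval -2.80 to -0.51) was not called (limma adjusted p = 0.1386). Against the DMSO libraries of 6 and 72 h as one control, chosen after seeing the data, it was -1.41 and was called (limma adjusted p = 0.03353). That control called 816 of all 16152 genes tested lower, against 50 in the planned fit. Within decitabine, the 72 h libraries stood -1.48 below those at 6 h on the log2 scale (limma adjusted p = 0.05892). The antisense gene DDN-AS1 overlaps DDN on the opposite strand and had 2.04 to 8.5 normalised counts over the 11 libraries. The libraries were stranded; whether the counting used strand is not stated in the sources at hand. Of 4 other slit diaphragm genes of the podocyte that passed the filter (CD2AP, MAGI2, WT1 and ACTN4), limma called 0 at 72 or 120 h. An unadjusted p under 0.05 was found for 0 of them. Over all genes tested, 1.88% were called higher and 0.31% lower at 72 h, and 9.91% and 6% at 120 h. Thus 0 of 4 is near these shares. Without decitabine 72 h replicate 1 some were called at 72 h, in a fit of 1 library against 1.

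FJX1, the human counterpart of the fly Golgi kinase four-jointed, was low in the later decitabine libraries. Its decitabine duplicates lay far apart at 6 h. It lies on the plus strand of chromosome 11 at 35618460 to 35620865. At 6 h it stood at 26.4 and 64.5 normalised counts with decitabine, against 36.8 and 31.2 with DMSO. At 72 h it stood at 9.42 and 15.2 with decitabine, against 42.9 in the DMSO library. At 120 h it stood at 3.56 and 12.8 with decitabine, against 49.4 and 55.4 with DMSO. The 6 h groups overlapped, and the decitabine groups of 72 and 120 h overlapped one another. Both decitabine 72 h libraries lay below the DMSO libraries of 6 and 72 h, as for 16.5% of all genes tested. The lower decitabine values at 120 h follow from the choice of the gene. The lowest value corresponds to about 4.76 estimated counts. The 72 h log2 fold change of -1.76 (SE 0.724, 95% interval -3.42 to -0.10) was not called (limma adjusted p = 0.2502), nor was it against the DMSO libraries of 6 and 72 h together (0.07953). The direction at 6 h depended on 1 library, since the log2 fold change was 0.28 with all libraries and -0.35 without decitabine 6 h replicate 2.

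The genes of the Fat, Dachsous and Hippo pathway, which acts downstream of four-jointed in the fly, had 3 calls at 120 h and 0 at 72 h. Of 12 that passed the filter besides FJX1, limma called 0 at 72 h, with 2 at an unadjusted p under 0.05, and the median log2 fold change was 0.42, against 0.09 over all genes tested, of which 1.88% were called higher and 0.31% lower. Without decitabine 72 h replicate 1 or 2 calls were made, in fits of 1 library against 1 at 72 h. With the DMSO libraries of 6 and 72 h as one control, 1 was called at 72 h, beside 1325 higher and 816 lower of all 16152 genes tested. At 120 h 2 of the 12 rose and 1 fell, beside 9.91% and 6% of all genes; with any 1 of the 120 h libraries left out 0 rose, and without either decitabine one 0 fell. TEAD3, a DNA-binding partner of YAP1, rose to 142 normalised counts with decitabine against 36.2 with DMSO (log2 fold change 1.96, SE 0.452, limma adjusted p = 0.02118). MOB1A, a cofactor of the LATS kinases, rose to 6890 against 4268 (0.69, limma adjusted p = 0.02309). NF2, which encodes merlin, fell to 650 against 1234 (-0.92, limma adjusted p = 0.006071). FAT1, the one Fat cadherin above the filter, stood at 2283 with decitabine and 3108 with DMSO at 120 h (limma adjusted p = 0.1964), while YAP1, DCHS1 and DCHS2 did not pass it. Of 4 secretory pathway kinases set beside FJX1, limma called 0 at 72 h, with 0 at an unadjusted p under 0.05, and 0 at 120 h, with 1. A lower call at 120 h was made without either decitabine 72 h library.

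ZFP41, the zinc finger gene, was the exception at 72 h. It lies on the plus strand of chromosome 8 at 143246939 to 143262705. At 6 h it stood at 31.1 and 46.4 normalised counts with decitabine, against 46.8 and 52.4 with DMSO. At 72 h it stood at 30.2 and 33.2 with decitabine, against 29.9 in the DMSO library. At 120 h it stood at 21.2 and 2.5 with decitabine, against 73.4 and 72.9 with DMSO. Both decitabine libraries lay just above the DMSO library at 72 h. The DMSO 72 h library was the lowest of the 5 DMSO libraries for this gene, whose median was 52.4. The 72 h log2 fold change was 0.08 (SE 0.871, 95% interval -1.91 to 2.07, limma adjusted p = 0.9707). It was -0.39 against the DMSO libraries of 6 and 72 h together and -0.18 after quantile normalisation, so its sign is not settled. The 120 h ratio rests on unequal duplicates: with all libraries the log2 ratio of means, 1 added to each mean, was -2.53, and it ran from -4.40 to -1.74 when 1 library of that time was left out. Of 11 other zinc finger genes of 8q24.3 that passed the filter, limma called 0 at 72 h and 0 at 120 h. Of these, 1 had an unadjusted p under 0.05 at 72 h, and 0 at 120 h. Over all genes tested, 1.88% were called higher and 0.31% lower at 72 h, and 9.91% and 6% at 120 h. Thus 0 calls at 72 h are near the share of all genes. Of 18 other zinc finger genes named ZFP, limma called 0 at 72 h, with 0 at an unadjusted p under 0.05, and at 120 h 1, ZFP36L1, an RNA-binding protein, which rose to 17.3 normalised counts with decitabine, against 0.735 with DMSO. The ZFP36L1 call was lost without DMSO 120 h replicate 2 or either decitabine 120 h library. At 72 h, calls were made in both the 8q24.3 and the ZFP list when decitabine 72 h replicate 1 was left out, a fit of 1 library against 1.

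The order of the group means differed between the genes. For PALD1 it ran DMSO 6 h (198 normalised counts), decitabine 6 h (175), DMSO 72 h (154), DMSO 120 h (146), decitabine 72 h (33.2) and decitabine 120 h (20.1). For MS4A6A decitabine 6 h was highest (173), the DMSO groups followed at 148, 147 and 119, and decitabine 120 h (22.5) stood above decitabine 72 h (15.6). For DDN, ZFP41 and FJX1 the highest mean was DMSO 120 h, at 93.8, 73.2 and 52.4, and the lowest decitabine 120 h, at 13.3, 11.8 and 8.19. The genes were chosen on these 120 h means. Neighbouring groups overlapped for DMSO 72 h, decitabine 6 h and DMSO 6 h in DDN, for DMSO 120 h, decitabine 6 h and DMSO 72 h in FJX1, for decitabine 6 h and decitabine 72 h in ZFP41, and, in MS4A6A, for DMSO 6 h with both DMSO 72 h and DMSO 120 h. Decitabine 72 h and decitabine 120 h overlapped in FJX1 only, and PALD1 was separated there by 0.584 normalised counts.

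The genes beside the 5 on their chromosomes had 0 calls, which at 72 h is near the share of all genes. The 2 nearest protein-coding genes on either side, 20 in all, included 12 that passed the filter and 8 that did not. Limma called 0 of the 12 at 72 h, with 2 at an unadjusted p under 0.05, and 0 at 120 h, with 1, while 1.88% and 0.31% of all genes tested were called higher and lower at 72 h and 9.91% and 6% at 120 h. The counts moved with the libraries. Without decitabine 72 h replicate 1, neighbours were called in both directions at 72 h, but that fit sets 1 library against 1 at this time. Without either decitabine 72 h library MS4A3 was called higher at 120 h. After quantile normalisation MS4A3 was called higher and MS4A4A lower at 120 h. With the DMSO libraries of 6 and 72 h as one control MS4A3 was called higher at 72 h, beside 1325 of all 16152 genes tested. The log2 fold changes of the 12 ran from -0.75 to 1.33 at 72 h and from -1.14 to 0.89 at 120 h. Beside DDN, PRKAG1, a subunit of the energy sensor AMPK, stood at 536 normalised counts with decitabine at 120 h and 430 with DMSO, and KMT2D, a histone methyltransferase, at 1037 and 950. Beside ZFP41, GLI4, also a zinc finger gene, stood at 19.7 with decitabine and 19.2 with DMSO. Beside FJX1, TRIM44 stood at 883 and 831. Beside PALD1, EIF4EBP2, a repressor of translation initiation, stood at 2246 and 1995, and NODAL, PRF1 and ADAMTS14 did not pass the filter. MS4A4A, which borders MS4A6A on its other side beyond MS4A4E, stood at 3.28 with decitabine and 8.3 with DMSO at 120 h, the lowest fold change of the 12 (log2 fold change -1.14, SE 0.596, limma adjusted p = 0.2443).

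**Figure D5:**
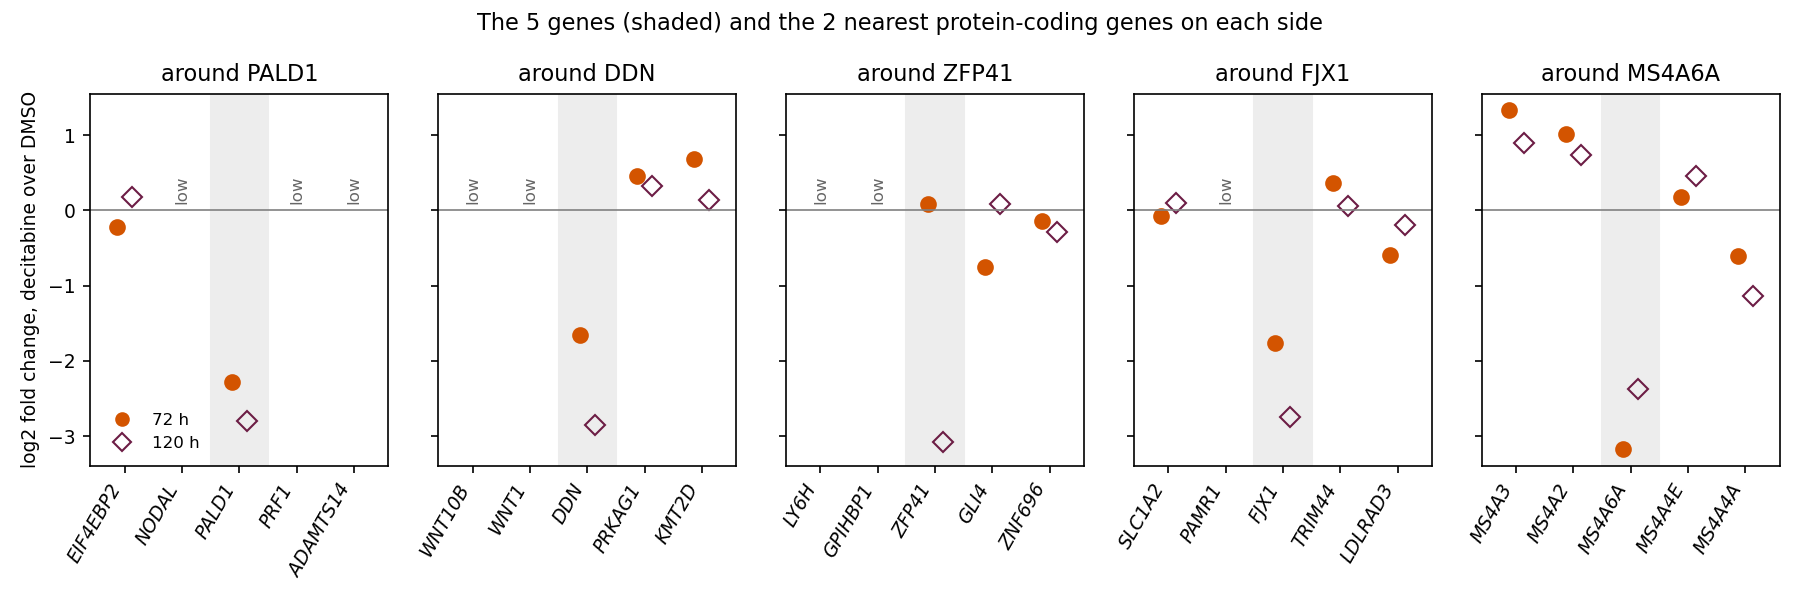
Log2 fold change of decitabine over DMSO (y axis) at 72 h (orange circles) and 120 h (open diamonds) for each of the 5 genes (shaded) and the 2 nearest protein-coding genes on each side (x axis, in chromosome order); genes under the filter are marked low. The 12 neighbours with values lie between -1.14 and 1.33, while the shaded genes lie at -1.65 or lower at both times, except ZFP41 at 72 h. The low position of the shaded genes at 120 h follows from how they were chosen.

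Across the 11 libraries the genes whose log2 levels ran most like each of the 5 were found by Pearson's r, as a description over libraries that share 1 cell line and the decitabine split. For PALD1 these were PCYT2, an enzyme of phospholipid synthesis (r = 0.994), DLAT, a subunit of pyruvate dehydrogenase (0.993), and GTF3A, which activates 5S ribosomal RNA genes (0.993). For MS4A6A they were ZNRD2 (0.992), the DNA glycosylase NTHL1 (0.983) and LDLRAD4 (0.982). For DDN they were MYO10, an unconventional myosin (0.977), the RNA-binding protein DAZAP1 (0.973) and the homeobox gene DLX1 (0.969). For FJX1 they were the mitochondrial seryl-tRNA synthetase SARS2 (0.968), PARVB (0.967) and PKP4 (0.967), and for ZFP41 the ubiquitin ligase RAD18 (0.922), HIBCH (0.913) and COPS7B (0.913). NTHL1 stood at 15.2 normalised counts with decitabine at 72 h and 70.9 with DMSO, and at 15.3 with decitabine and 56.6 with DMSO at 120 h. PCYT2 stood at 232 with decitabine and 485 with DMSO at 72 h. These levels have no test here, since the genes were picked for following the 5 over the same libraries. Among the 5 genes themselves r ran from 0.505 for ZFP41 and MS4A6A to 0.95 for PALD1 and MS4A6A. These r include the 120 h libraries that chose all 5 genes as low with decitabine, so positive values were partly fixed in advance.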

How the data were processed

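RNA-seq values of HL-60 cells were taken from 1 deposited table of 60240 genes, listed by Ensembl identifier and symbol. The authors deposited normalised expression (a non-negative signal, called normalised count here). Tools named in the submitters' processing notes, in no stated role, are STAR, featureCounts, Salmon 1.2.1, DESeq2 and limma, with genome hg38; neither the annotation release nor the strand setting is stated in the sources at hand. The heading has 12 library names and the rows 11 values; names were matched from the symbol onward, so DMSO 72 h replicate 2 has no values and was not analysed here. Each result rests on this reading. Of the genes tested, 18.7% had whole counts (within 0.001) in all 11 libraries once divided by the value of 1 count, so no count model was run. Estimated depth was 14427335 to 32908453 counts per library.

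The scale was log2(value + 1), and the filter kept 16152 genes that reached 10 in 2 or more libraries. Fold changes are on this scale, which shrinks those of low genes. One mean per group was fitted to 11 libraries with limma 3.58.1 (eBayes with a trend) in R 4.3.3, with 5 residual degrees of freedom, so the spread also comes from the 120 h libraries. The design was written for 12 libraries; for the lone DMSO 72 h library the spread of the other groups was assumed. Calls were made at a two-sided p under 0.05 after Benjamini-Hochberg adjustment over all genes tested. The 5 genes were not tested at 120 h, since that contrast chose them. The duplicates are wells of one cell line and may be technical, and p-values reflect the spread between these wells only.

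The 5 genes and the gene lists were chosen with earlier results of these data known. Further genes were named by rule: the 3 next in rank at 120 h, the 3 with the most similar profile to each, the 2 nearest protein-coding genes on each side (RefSeq, GRCh38.p14), and, per list, up to 3 called at 72 h with the largest change, or genes with a mean above 10 where fewer were called. The list genes named for their calls at 120 h (ZFP36L1 among them, with a lower mean), and IRF8 and SPI1, were chosen after their values were seen. RefSeq promoter windows matched 3 of the 5 genes by symbol (not DDN and ZFP41). Gene types came from GENCODE 29. Alternatives were another pseudocount, filter, normalisation, sample weights, a replicate block, other libraries in the fit and other controls. Plots were drawn with matplotlib 3.10.9.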

Additional observations from a re-analysis of the deposited data

Results flagged for a closer look

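MS4A6A stood out because its decitabine effect differed between times by a test of the difference itself. The 72 h effect minus the 6 h effect was -3.40 on the log2 scale (SE 0.439, limma adjusted p = 0.0187). Both decitabine libraries were lower than the DMSO library at 72 h, while the groups overlapped at 6 h.

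ZFP41 stood out because both decitabine libraries were below both DMSO libraries at 6 h and above the DMSO library at 72 h. The nearest values were only 0.436 normalised counts apart at 6 h and 0.368 at 72 h, about 1 count or less. The difference of the effects, 0.457 on the log2 scale, was tested and not called (limma adjusted p = 0.8785).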

How the results depend on the processing

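The limits are those of small groups. DMSO 72 h had 1 library, the decitabine 72 h pair differed most, and low genes (FJX1, ZFP41, DDN) rest on few counts at 120 h, so that differences of a few counts were not detectable. The same-numbered libraries did not deviate together (r from -0.0777 to 0.124 over 10 pairs of groups, 2 of them over 0.1), so the numbers were not taken as pairs.

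At 72 h, 2 of the 5 genes were called. The number was 1 with no filter, with sample weights and with the replicate block, 0 with the 72 h libraries alone, 4 against all DMSO libraries, which include those the genes were chosen on, and 3 against the DMSO libraries of 6 and 72 h, a control chosen after seeing the data. Over all genes, 353 were called at 72 h, against 80 with sample weights, 215 with the replicate block, 0 with the 72 h libraries alone (766 at an unadjusted p under 0.05), 2917 against all DMSO libraries and 2141 against those of 6 and 72 h. Against all DMSO libraries DDN and FJX1 were also called. That control holds the DMSO 120 h libraries used to choose the genes, so these calls are not independent of the choice. Leaving out 1 library gave 1 to 2 of the 5 genes and 143 to 4759 of all genes, the highest without decitabine 72 h replicate 1. That fit sets 1 library against 1 at 72 h, with the spread taken from the other groups. The fit without replicate 2 has the same layout and called far fewer genes, and the cause of the gap was not tested.

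At 6 h, 0 genes were called, against 3 without a trend, 1 with the 6 h libraries alone and 0 to 3 without 1 library. For the difference between the 72 and 6 h effects, 1 of the 5 genes was called, against 0 with sample weights or the times compared alone and 0 to 2 without 1 library. Over all genes, 99 were called, against 29 with sample weights, 53 with the replicate block, 1 with the times alone and 6 to 3741 without 1 library. Between decitabine 72 h and 6 h, 1500 genes were called (966 higher and 534 lower, or 901 and 788 after quantile normalisation), against 158 with sample weights, 295 with the times alone and 248 to 5826 without 1 library; 2 of the 5 genes were called, or 2 to 3 without 1 library. DDN was called there with a pseudocount of 5 (adjusted p = 0.04661) and after quantile normalisation (0.04747). Between DMSO 72 h and 6 h, 0 were called, against 116 with no filter, 1 without a trend and 1 with sample weights.

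The sign of ZFP41 at 72 h turned after quantile normalisation (-0.18), against all DMSO libraries (-0.71) and against those of 6 and 72 h (-0.39). The value of -0.71 draws on the DMSO 120 h libraries that were used to choose the gene. Without 1 library, signs turned for DDN at 6 h (-0.16 to 0.54), FJX1 at 6 h (-0.35 to 0.91), ZFP41 between decitabine 72 h and 6 h (-0.54 to 0.0273) and MS4A6A between DMSO 72 h and 6 h (-0.18 to 0.21), the last also after quantile normalisation (-0.0223); none of these was called. MS4A6A at 72 h kept its direction and call in each setting run except with the 72 h libraries alone (adjusted p = 0.6314).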
